A study of Homo sapiens with 16 samples.

Results

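Mitochondrial ribosomal proteins are the nuclear-encoded proteins of the ribosome inside mitochondria, and their genes carry the symbols MRPL (large subunit) and MRPS (small subunit) followed by a number. The genes were taken by symbol: every protein-coding row of the gene count table whose symbol is MRPL or MRPS, a number and at most 1 letter. This gave 78 genes, 49 MRPL and 29 MRPS, out of 69222 gene rows, and they lie on 21 chromosomes. Of the 78, 72 had enough counts to be tested, out of 18081 genes tested in all.

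The mitochondrial ribosome descends from a bacterial one and translates the few proteins that the mitochondrial genome encodes, all of them subunits of the respiratory chain and ATP synthase. Its proteins are made in the cytosol and imported, and they join ribosomal RNA made inside the organelle. Some have bacterial counterparts, and others were added in the mitochondrial lineage and are called mitochondrion specific here. Neurons depend strongly on respiration, and differentiation of neuroblastoma cells is accompanied by a change from proliferation to neurite growth.

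SH-SY5Y, a human neuroblastoma cell line, was sequenced as polyadenylated RNA in 8 groups of 2 libraries. The untreated group grew on culture plates, and the labels give it no serum schedule. The differentiated plate group and all 6 film groups had serum lowered to 5%, 2.5% and 1% on days 2, 3 and 5, retinoic acid at 10 µM from day 3 to day 6, and then brain-derived neurotrophic factor at 50 ng/mL for 4 days. The 3 films were P(rGO) (reduced graphene oxide in a polymer), PEDOT:PSS (a blend of conducting polymers) and ITO (indium tin oxide). Each was used without and with electrical stimulation, which was a square wave at 1 Hz with an amplitude of 0.1 V from peak to peak, given 8 h a day during the final 4 days. Films carried poly-L-lysine and laminin and no coat is named for plates, so film and coat cannot be told apart. Nothing states that the replicates were separate cultures, so p-values measure only how these libraries vary, and that variation may be technical. In bulk RNA, fewer cells of a type and less RNA per cell cannot be told apart.

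Libraries held 15600410 to 20851000 counts assigned to genes. The 8 adrenergic markers of this cell line used here (such as HAND2, GATA3 and DBH) were all detected in every library, with a summed level of 4456 to 4817 CPM (counts scaled to a common library size by edgeR) in untreated cells, 3105 to 3199.9 on differentiated plates and 2052 to 2793 on films. Of 13 fibroblast markers, 1 to 3 had no count in a library, and their summed level was 1287 to 1381 CPM in untreated cells, 687 to 695 on plates and 623 to 962 on films. Both summed levels were lower in every differentiated library than in the untreated ones, although single markers such as ISL1 rose on plates, and their part in the results below was not tested. The untreated libraries were the most uneven pair, with a coefficient of variation between replicates of 23.1% for the mitochondrial ribosomal proteins and 36.2% for all genes, against 4.7% to 12.2% for the former in the other 7 groups.

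Of the 78 genes, 4 had no count in any of the 16 libraries: MRPL23, MRPL53, MRPS12 and MRPS18B. These zeros should not be read as levels. Around MRPS18B, a protein of the small subunit, 11 of 14 protein-coding neighbours within 200 kb also had no count, FLOT1, PPP1R10 and HLA-E among them. Around MRPS12, the counterpart of a bacterial decoding-centre protein, 13 of 18 neighbours had none, including HNRNPL and SIRT2, and around MRPL23 the number was 8 of 13. Several of those neighbours are genes that most cells use. MRPL53 shares 45.2% of its exon bases with CCDC142 on the same strand, and 1 of its 23 neighbours had no count. Among all 19904 protein-coding rows, 15.8% were at 0. MRPL45, with 47 counts over all libraries, and MRPS24, with 67, had too few counts to be tested, and MRPS24 shares 23.2% of its exon bases with the read-through gene URGCP-MRPS24.

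For the 72 tested genes the mean level per kilobase of exon ran from 0.551 CPM per kb for MRPL2, with a median of 11.4, to 102 CPM per kb for MRPS21. The next levels below MRPS21 were those of MRPS26 at 63.1, MRPS34 at 56.7 and MRPL51 at 44.7 CPM per kb. The lowest neighbours of MRPL2 were MRPL46 at 0.56 and MRPS28 at 0.866 CPM per kb. On the same strand, AC013489.1 overlaps 11.3% of the exon bases of MRPL46, and AC036214.3 overlaps 35.8% of those of MRPS28. The levels of MRPL46 and MRPS28 are therefore uncertain. The length is that of all annotated exons of a gene (GENCODE 29). MRPL12, the protein of the stalk that recruits translation factors, shares 68.2% of its exon bases on the same strand with the annotated gene AC139530.2, so its counts are uncertain. The symbols do not always give the place in the ribosome: MRPS30 and MRPS18A are proteins of the large subunit, and RefSeq lists MRPS36 as KGD4, a subunit of the ketoglutarate dehydrogenase complex. The table has 81 pseudogene rows named for these genes, 1 of them with a mean of 10 counts or more, so reads may be split between a gene and its copies.

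Some promoters of these genes carry short motifs that their rule of selection did not use. RefSeq windows of 300 bases (250 before and 50 after the annotated start, GRCh38.p14) were at hand for 69 of the 78 genes, and exact matches were counted on both strands. The ETS-type motif CCGGAAG, the kind bound by GABP, was in 29 of 69 windows (42.0%), against 14.4% of 15338 protein-coding genes of the table and 10.7% of all 27305 windows. The YY1-type motif AAGATGGC was in 20 windows (28.99%), against 3.96% of protein-coding genes and 3.03% of all windows. The palindromic motif of NRF1 was in 1 window (1.45%), against 1.72% of protein-coding genes and 1.36% of all windows. The end of the first motif and the start of the second have the same 3 letters, so they could share bases, but in the 8 genes with both they shared none. At least 1 of the 3 motifs was in 42 of 69 windows (60.9%), against 18.7% of protein-coding genes. The protein-coding genes of this comparison were not limited to genes with counts, and a comparison with expressed genes was not made. A match describes the sequence only and shows no binding.

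The ETS-type motif had 1 or more matches in 22 genes within the 100 bases before the start. The 100-base stretches of 5 such genes are shown 5′ to 3′ on the gene's strand, with the matches in capitals, because they place the motif close to the start in genes that fell after differentiation (MRPL20, MRPL54 and MRPL58) as well as in genes that were not called (MRPS18A and MRPS31). They were chosen after the values were seen. MRPL20 lies at chr1:1407294-1407393 on the minus strand, MRPL54 at chr19:3762582-3762681 on the plus strand, MRPL58 at chr17:75012570-75012669 on the plus strand, MRPS18A at chr6:43687792-43687891 on the minus strand and MRPS31 at chr13:40771191-40771290 on the minus strand (GRCh38.p14).
MRPL20: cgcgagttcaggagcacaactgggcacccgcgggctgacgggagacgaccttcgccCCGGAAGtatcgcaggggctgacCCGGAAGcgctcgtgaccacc
MRPL54: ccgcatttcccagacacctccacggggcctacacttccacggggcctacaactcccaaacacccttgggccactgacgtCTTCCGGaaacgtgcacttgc
MRPL58: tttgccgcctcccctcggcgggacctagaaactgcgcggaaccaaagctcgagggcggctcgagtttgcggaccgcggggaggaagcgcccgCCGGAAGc
MRPS18A: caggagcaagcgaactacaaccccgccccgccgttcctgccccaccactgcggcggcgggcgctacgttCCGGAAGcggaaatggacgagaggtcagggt
MRPS31: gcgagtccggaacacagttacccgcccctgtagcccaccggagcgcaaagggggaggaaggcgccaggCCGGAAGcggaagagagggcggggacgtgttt
MRPL20 carries the motif at 2 places, which begin 44 and 21 bases before the start, and MRPL54 carries it on the opposite strand.

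The first comparison asked how differentiation on plates changed these genes. The summed level of their transcripts was 3489 and 3442 CPM in the untreated libraries and 2686 and 2425 CPM in the differentiated plate libraries, so the groups did not overlap. Of 72 genes, 36 fell, called where the Benjamini-Hochberg adjusted p of edgeR's quasi-likelihood test was 0.05 or less, and none rose. Of all 18081 genes, 29.6% were called, 15.8% lower and 13.8% higher. The median log2 fold change was -0.49 over the 72 genes and -0.01 over all genes tested, and 65 of the 72 estimates were below 0. Both plate libraries lay below both untreated libraries in 46 genes and above them in 1, while 56.4% of all genes did not overlap in either direction.

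**Figure D1:**
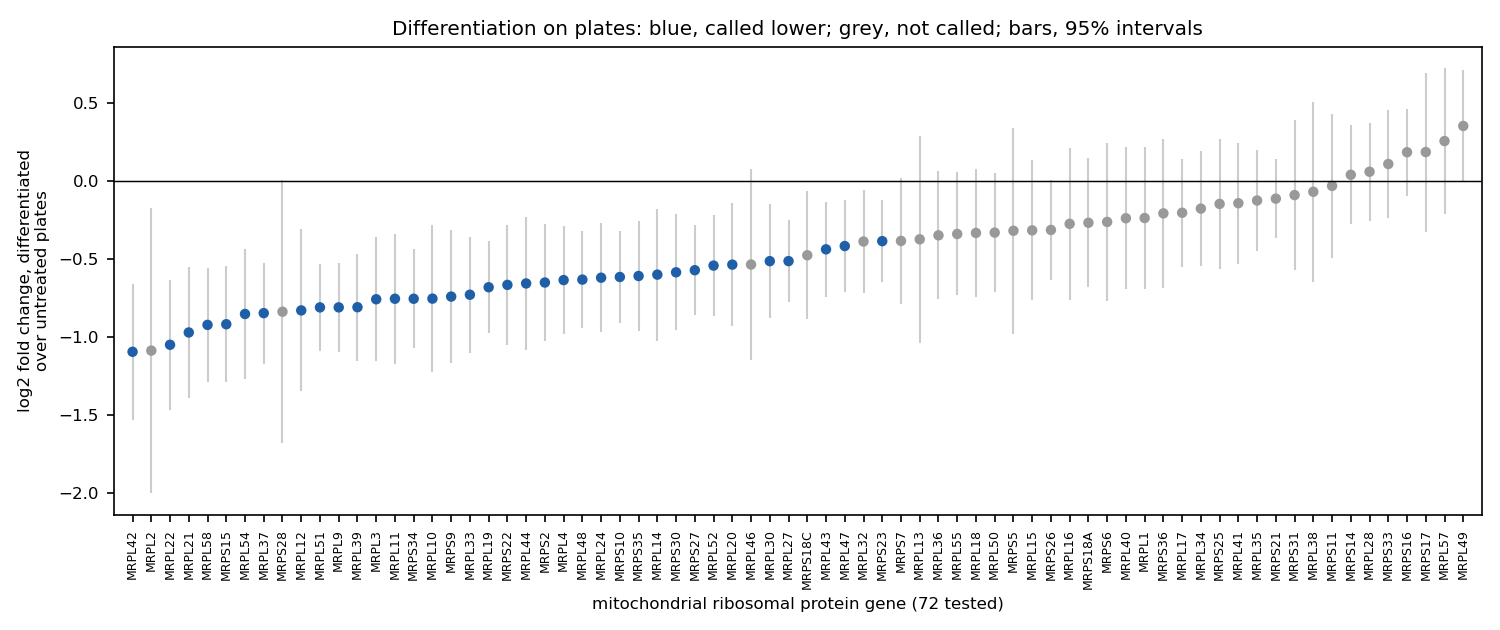
Log2 fold change between differentiated and untreated plates (y axis) for each of the 72 tested mitochondrial ribosomal protein genes (x axis, sorted), with 95% intervals from edgeR as bars. The 36 genes called lower (blue) run from -1.09 to -0.38, none was called higher, and 7 estimates lie above 0.

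Genes of both subunits fell, where 15.8% of all genes were called lower. Of 46 tested MRPL genes 26 fell (median log2 fold change -0.53), and of 26 MRPS genes 10 fell (median -0.35); the difference between the subunits was not tested. Within the large subunit, 16 of 29 proteins with a bacterial counterpart fell (median -0.51), as did 11 of 18 mitochondrion-specific ones (median -0.56). In the small subunit 4 of 14 with a bacterial counterpart fell (median -0.35) and 5 of 9 mitochondrion-specific ones (median -0.38). Mitoribosomal proteins with other names gave 2 lower of 5, DAP3, a GTP-binding protein of the small subunit (-0.59 ± 0.16, standard error, adjusted p = 0.017), and GADD45GIP1, a protein of the large subunit (-0.70 ± 0.16, adjusted p = 0.0054, both edgeR).

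By position in the ribosome, the stalk, which brings translation factors, fell in all 4 of its tested genes (MRPL10, MRPL11, MRPL12 and MRPL54). Their median log2 fold change was -0.79, and 15.8% of all genes were called lower. Whether positions in the ribosome differ was not tested. MRPL10, the base of the stalk, had 106 and 201 CPM in untreated cells and 94.5 and 88.0 on plates. The untreated libraries were far apart, and the groups did not overlap (-0.75 ± 0.22, edgeR adjusted p = 0.020). MRPL11, which holds the GTPase-binding site with the stalk, had 42.3 and 29.8 CPM in untreated cells and 24.6 and 18.2 on plates (-0.75 ± 0.19, edgeR adjusted p = 0.011). MRPL12 had 9.35 and 8.35 CPM against 5.43 and 4.54 (-0.83 ± 0.24, edgeR adjusted p = 0.021). Its call ended without plate replicate 2, at an adjusted p of 0.14. MRPL54 had 15.4 and 19.8 CPM against 10.8 and 8.79 (-0.85 ± 0.20, edgeR adjusted p = 0.0062), and without plate replicate 2 its adjusted p was 0.072.

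Proteins around the exit of the peptide tunnel fell in 3 of 3 tested genes (MRPL22, MRPL24 and MRPL47), with a median log2 fold change of -0.62. MRPL22, which lines the tunnel, had 19.7 and 22.2 CPM in untreated cells and 11.1 and 9.14 on plates with no overlap (-1.05 ± 0.19, edgeR adjusted p = 0.0018). In the central protuberance, the part of the large subunit that faces the small one, 1 of 5 fell, where 15.8% of all genes were called lower. That gene was MRPL48 (-0.63 ± 0.15, adjusted p = 0.0064). The other 4 ranged down to MRPL46 at -0.53 ± 0.29 (adjusted p = 0.17) and up to MRPL38 at -0.07 ± 0.27 (adjusted p = 0.87, all edgeR). AC087289.3 overlaps 37.5% of the exon bases of MRPL38 on the same strand, so the counts of MRPL38 are uncertain.

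The deepest called fall was that of MRPL42, a mitochondrion-specific protein of the large subunit on chromosome 12 (93467488 to 93516213, plus strand, GRCh38). It had 82.1 and 127 CPM in untreated cells and 56.6 and 41.4 on plates, and no plate library reached an untreated one (-1.09 ± 0.20, edgeR adjusted p = 0.0018). MRPL21, the counterpart of a bacterial large-subunit protein, went from 40.7 and 58.5 to 28.9 and 21.7 CPM (-0.97 ± 0.19, edgeR adjusted p = 0.0030). Without plate replicate 2 its adjusted p was 0.051. MRPL58, a peptidyl-tRNA hydrolase built into the ribosome that releases stalled chains, went from 36.5 and 40.4 to 23.3 and 17.3 CPM (-0.92 ± 0.17, edgeR adjusted p = 0.0018). MRPS15, of the small subunit, went from 51.3 and 46.5 to 29.04 and 22.8 CPM (-0.92 ± 0.17, edgeR adjusted p = 0.0021). In each of these genes the plate replicate 2 was the lower plate library.

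The 3 smallest p-values belonged to MRPL51, MRPL9 and MRPL37, all proteins of the large subunit. MRPL51, a small mitochondrion-specific protein on chromosome 12 (6491886 to 6493841, minus strand, GRCh38), had 113 and 104 CPM in untreated cells and 66.8 and 56.9 on plates (-0.81 ± 0.13, edgeR adjusted p = 0.00086). NCAPD2, a condensin gene of dividing cells, overlaps 31.3% of its exon bases on the other strand, and the strand setting behind the counts was not given in the sources used here. MRPL9 had 74.8 and 81.1 CPM against 48.9 and 40.1 (-0.81 ± 0.13, edgeR adjusted p = 0.00089). AL589765.7 and OAZ3 overlap 33.2% of the exon bases of MRPL9 on the other strand, and AL589765.4 overlaps 6.51% on the same strand. MRPL37 had 72.5 and 98.8 CPM against 50.8 and 44.6 (-0.85 ± 0.15, edgeR adjusted p = 0.0015).

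Other genes of the family gave estimates near 0 or uncertain ones. MRPS21, the highest per kilobase, had 191 and 199 CPM in untreated cells and 193 and 168 on plates, and its libraries overlapped (-0.11 ± 0.12, edgeR adjusted p = 0.50); scaled to total counts alone the estimate was 0.043. MRPL2, the lowest per kilobase, had 1.60 and 3.39 CPM against 1.14 and 1.198 (-1.09 ± 0.43, edgeR adjusted p = 0.069), an estimate as large as that of MRPL42 with a wide interval. The MRPS18 paralogs, 3 versions of a bacterial protein of which MRPS18B had no counts, were not called. MRPS18A had 26.8 and 17.3 CPM against 19.4 and 17.3 (-0.27 ± 0.19, edgeR adjusted p = 0.31), and without untreated replicate 1 the estimate turned to 0.084. MRPS18C had 21.4 and 15.2 CPM against 14.5 and 11.8 (-0.47 ± 0.19, edgeR adjusted p = 0.076). On the other strand, RSPH9 overlaps 47.0% of the exon bases of MRPS18A, and ABRAXAS1 overlaps 40.2% of those of MRPS18C. MRPL49 had the highest estimate, with 63.4 and 46.1 CPM in untreated cells and 64.8 and 75.3 on plates, which did not overlap (0.36 ± 0.17, edgeR adjusted p = 0.12).

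The calls on plates rest on a spread estimated over all 8 groups. The untreated pair was more uneven than the other groups (36.2% over all genes, against 6.9% to 18.1%). Standard errors and p-values of comparisons with untreated cells may therefore be too small, also for single genes such as MRPL10. A fit with the 4 plate libraries alone called 0 of the 72 genes and 347 of all genes, with a median log2 fold change of -0.50, and without plate replicate 2 the count was 10 of 72, all lower. With total counts as the only scaling the median over all genes moved to 0.14, that of the 72 genes was -0.34, and 23 were called lower and 1 higher. Calls over all genes are given only for the fit of the 4 plate libraries, so the other refits show nothing particular to the 72 genes.

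Genes that work with the mitochondrial ribosome were measured in the same libraries, and whether they differ from it was not tested. Of all genes, 15.8% were called lower and 13.8% higher between differentiated and untreated plates. Of 23 tested assembly factors 2 fell, NOA1 (-0.70 ± 0.24, adjusted p = 0.044) and METTL17 (-0.57 ± 0.20, adjusted p = 0.049, edgeR), and their median was 0.02. Of 13 translation factors 4 fell and 1 rose. OXA1L, which inserts new chains into the inner membrane, fell (-0.70 ± 0.18, adjusted p = 0.013), and so did GFM1, an elongation factor (-0.44 ± 0.12, adjusted p = 0.015). TSFM, the elongation factor Ts, rose (1.83 ± 0.50, adjusted p = 0.015, edgeR) from a level of 0.36 CPM to 1.30 CPM. These levels are too low for a firm estimate. Aminoacyl-tRNA synthetases of mitochondria gave 3 lower of 18 (median -0.22), among them NARS2 (-0.72 ± 0.16, adjusted p = 0.0052). Factors of mitochondrial transcription and RNA stability gave 3 lower of 11 (median -0.35), among them SLIRP (-1.01 ± 0.19, adjusted p = 0.0021) and LRPPRC (-0.42 ± 0.14, adjusted p = 0.039), which stabilise mitochondrial messengers.

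Of 9 tested regulators of mitochondrial gene supply 3 were called lower, where 15.8% of all genes were. Named here are only those tied to the motifs counted above, so the other called ones are not named. GABPB1, a subunit of the ETS-type factor GABP, fell (-0.47 ± 0.17, adjusted p = 0.048), and its partner GABPA was not called (-0.38 ± 0.16, adjusted p = 0.081). NRF1 (-0.30 ± 0.17, adjusted p = 0.19) and YY1 (-0.33 ± 0.13, adjusted p = 0.075, edgeR) were not called. The ETS-type motif was in 16 of 34 windows of genes that fell (47.1%) and 11 of 30 of genes tested and not called (36.7%), and the YY1-type motif was in 9 of 34 (26.5%) and 7 of 30 (23.3%). These shares were not tested against each other, and the part of any regulator in the falls was not tested.

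Listed genes of other families of the translation and energy machinery were lower as well, where 15.8% of all genes were called lower. Of a chosen list of 34 cytosolic ribosomal protein genes, which need not be the whole family, 32 were tested. All 32 were below 0 and 31 fell (median log2 fold change -0.84), RPLP0 by 1.21 ± 0.20. The list's summed level was 39893 and 61355 CPM in untreated replicates 1 and 2, so these were far apart. On plates it was 32352 and 23997 CPM. Of 31 nuclear genes of oxidative phosphorylation 21 fell (median -0.62), with NDUFA4, a subunit of complex IV, at -1.18 ± 0.13 (edgeR adjusted p = 6e-05). Of the 13 mitochondrially encoded messengers, which are the templates of the mitochondrial ribosome none was called by edgeR (median -0.24). Cell cycle genes fell in 16 of 29 (median -1.38), and fibroblast markers in 8 of 11 (median -1.24). The part of dividing cells in the falls above was not tested.

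**Figure D2:**
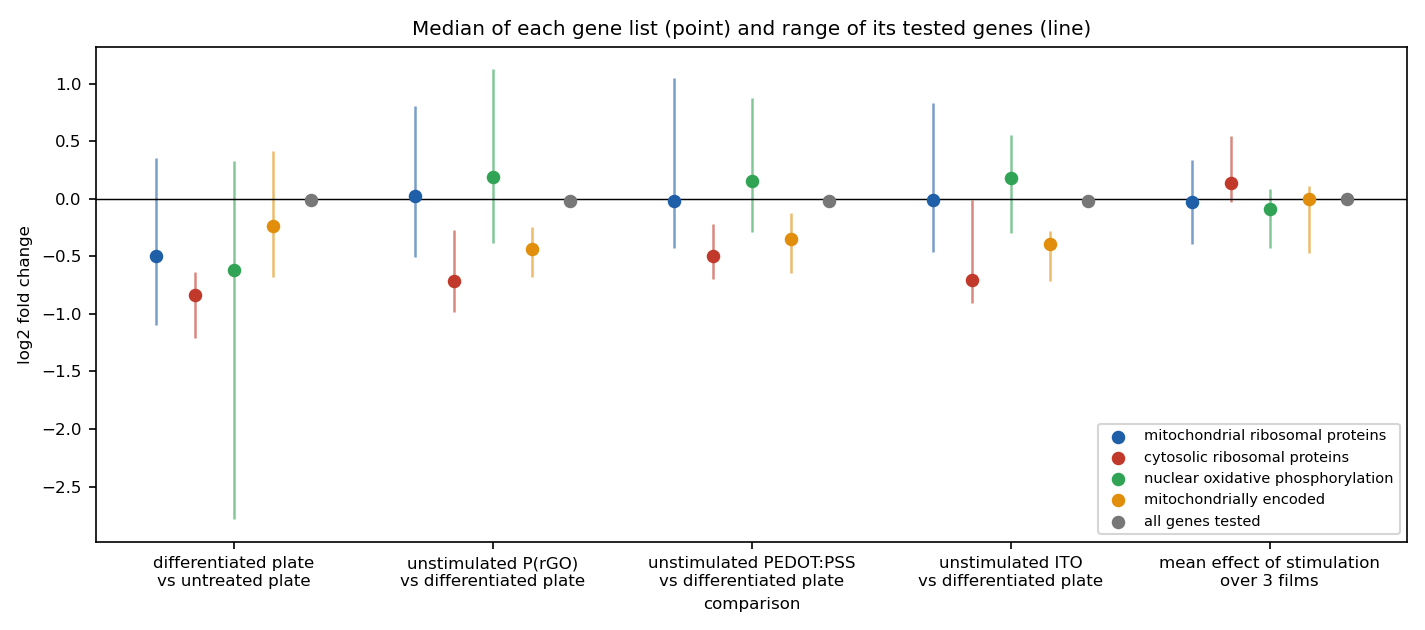
Median log2 fold change of each gene list (points, y axis) with the range of its tested genes (lines) in 5 comparisons (x axis); all genes tested have a point only. Mitochondrial ribosomal proteins (blue) have a median of -0.49 on plates and between -0.03 and 0.02 in the other 4 comparisons, while cytosolic ribosomal proteins (red) have -0.71, -0.50 and -0.71 on the 3 films against plates.

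The second comparison asked whether cells differentiated on a conductive film differed from cells differentiated on plates. No gene of the 72 was called by edgeR on unstimulated P(rGO), PEDOT:PSS or ITO, where 4.63%, 1.48% and 4.23% of all genes were called. At an unadjusted p under 0.05 there were 3, 2 and 5 genes (4.2%, 2.8% and 6.9%), against 19.5%, 13.8% and 16.9% of all genes. DESeq2 called 0, 0 and 1 of the 72. The median log2 fold changes were 0.02, -0.02 and -0.01. The 95% interval lay within a 2-fold change either way for 70, 69 and 69 of the 72 genes, and within 1.5-fold for 42, 48 and 45, so smaller differences remain possible for many genes. The 3 films share the plate libraries.

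**Figure D3:**
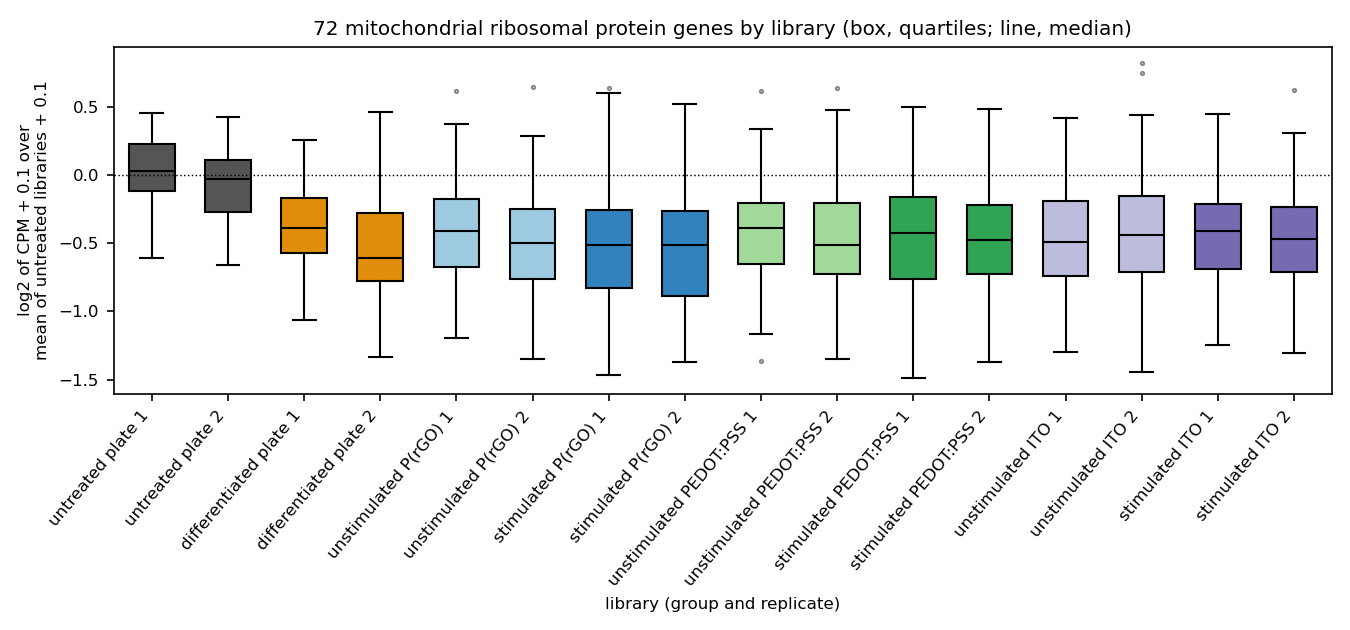
Log2 ratio of each of the 72 genes to the mean of the untreated libraries, on CPM plus 0.1 (y axis), for each of the 16 libraries (x axis); boxes are quartiles, lines medians, whiskers reach 1.5 times the box and points are genes beyond. The 2 plate libraries have medians of -0.39 and -0.61, and the 12 film libraries lie between -0.51 and -0.39.

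Summed levels on the 12 film libraries ran from 2386 to 2561 CPM with a median of 2496, against 2425 and 2686 CPM on the plates. The plate replicates differed among themselves by a median log2 difference of -0.17 over these genes, replicate 2 being the lower, against a median near 0 over all genes. Film replicates differed by medians between -0.08 and 0.03. The median coefficient of variation of a gene over the 12 film libraries was 8.1%, from 3.41% for MRPS11 to 31.1% for MRPL2, which has few counts.

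Of the 72 genes, 6 had all 12 film libraries below both plate libraries (MRPL10, MRPL11, MRPL17, MRPS2, MRPS30 and MRPS33), 3 had all 12 above (MRPL41, MRPS6 and MRPS22), and 63 overlapped. Of all genes tested, 8.3% had all film libraries below both plate libraries and 9.24% above. The edgeR fit over all 16 libraries called none of the 9 on a single film. DESeq2 called MRPS6 on unstimulated ITO (0.78, adjusted p = 0.032). The edgeR fit without the untreated libraries called MRPS2 and MRPL10 on unstimulated P(rGO), MRPL10, MRPS22 and MRPS6 on unstimulated ITO, and MRPS30 on stimulated PEDOT:PSS, with adjusted p-values from 0.016 to 0.043. These 9 genes were named after their values were seen.

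MRPS2, the counterpart of a bacterial protein of the small subunit, on chromosome 9 (135499984 to 135504673, plus strand, GRCh38), had 57.3 and 78.1 CPM in untreated cells and 45.7 and 40.6 on plates. On films its lowest, median and highest levels were 28.1, 33.1 and 38.3 CPM, so it was lower at each step and no groups overlapped. The log2 fold change against plates was -0.49 ± 0.18 on P(rGO) (edgeR adjusted p = 0.13) and -0.36 ± 0.18 on PEDOT:PSS (adjusted p = 0.38). In a fit without the untreated libraries the P(rGO) value was called (-0.48, adjusted p = 0.038).

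MRPL41, a mitochondrion-specific protein of the large subunit, lies on chromosome 9 (137551199 to 137552555, plus strand, GRCh38). Its levels were higher on films than on plates, but edgeR called it on no film. It had 35.1 and 42.4 CPM in untreated cells, 31.3 and 39.1 on plates, and from 41.7 through a median of 46.9 to 60.5 CPM on films. Every film library was above the plates, and 1 stimulated P(rGO) library was below the higher untreated one. It was among the 3 smallest p-values in 5 of the 6 film comparisons, and its log2 fold change was 0.46 ± 0.18 on P(rGO) and 0.39 ± 0.18 on PEDOT:PSS without stimulation (edgeR adjusted p = 0.17 and 0.36). With stimulation they were 0.54 ± 0.18, 0.52 ± 0.18 and 0.43 ± 0.18 on P(rGO), PEDOT:PSS and ITO (edgeR adjusted p = 0.16, 0.21 and 0.31). All of these share the plate libraries.

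MRPS6, the counterpart of a bacterial small-subunit protein, on chromosome 21 (34073224 to 34143034, plus strand, GRCh38), had 16.01 and 17.1 CPM on plates and 21.1 and 35.1 on unstimulated ITO (0.76 ± 0.23, edgeR adjusted p = 0.090). The second ITO library stood apart from all other film libraries, which lay between 18.6 and 22.9 CPM. Without ITO replicate 1, so with the high library alone, the estimate was 1.08 and was called (adjusted p = 0.034), and DESeq2 called it with both libraries (adjusted p = 0.032), as did edgeR with no filter (0.027). SLC5A3, a transporter of inositol, and AP000317.2 overlap 9.61% of its exon bases on the same strand. On the same film MRPS22, a mitochondrion-specific protein of the small subunit, had 38.7 and 42.3 CPM against 31.1 and 28.8 on plates (0.44 ± 0.18, edgeR adjusted p = 0.23). Without the untreated libraries in the fit, MRPS6 and MRPS22 were both called (adjusted p = 0.016 and 0.034). MRPL30 had 29.4 and 26.7 CPM against 44.0 and 31.7 (-0.43 ± 0.17, edgeR adjusted p = 0.21).

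**Figure D4:**
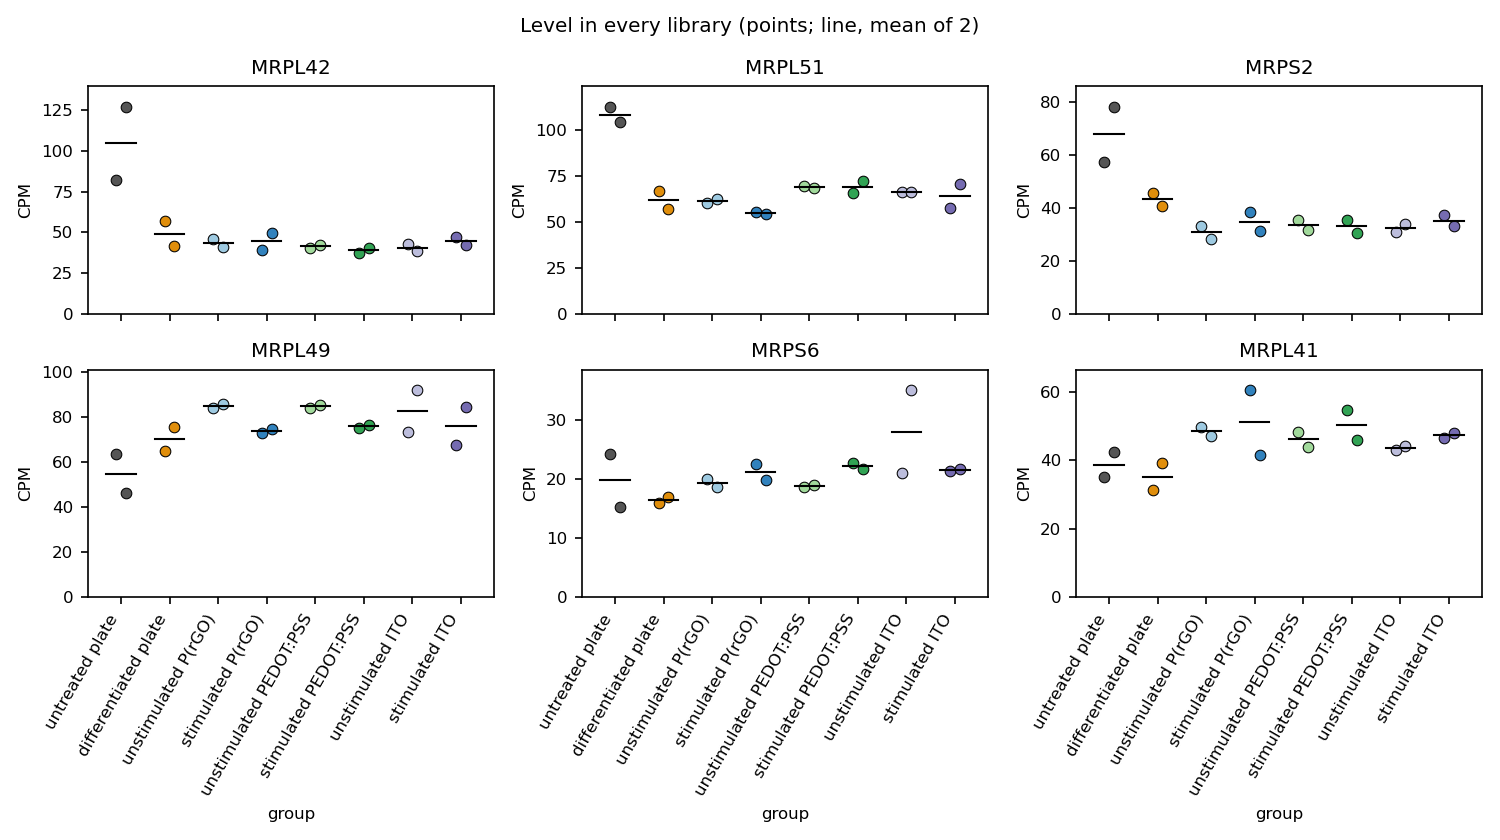
CPM (y axis, from 0) of MRPL42, MRPL51, MRPS2, MRPL49, MRPS6 and MRPL41 in every library, by group (x axis); points are libraries and lines the mean of 2. MRPL42 and MRPL51 are lower in all differentiated groups, MRPL49 is higher on films than in untreated cells, and 1 unstimulated ITO library sets MRPS6 on that film at 35.1 CPM.

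MRPL11, of the stalk, had 14.1, 15.99 and 17.8 CPM as its lowest, median and highest film levels, below the plates at 24.6 and 18.2. Its log2 fold change was -0.50 ± 0.20 on P(rGO) (edgeR adjusted p = 0.17). MRPS28, of the small subunit, with about 1 to 2 CPM, gave 1.60 and 2.49 CPM on PEDOT:PSS against 0.869 and 1.098 on plates (1.05 ± 0.39, edgeR adjusted p = 0.23). Its level is too low for a firm estimate.

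Stimulated films against plates also gave no call among the 72 genes, where 1.68%, 1.25% and 2.18% of all genes were called on P(rGO), PEDOT:PSS and ITO by edgeR. Unadjusted p-values under 0.05 numbered 4, 4 and 1 (5.6%, 5.6% and 1.4%), against 15.4%, 12.9% and 13.4% of all genes. DESeq2 called 0 of the 72 on each, and their medians were -0.09, 0.01 and near 0. MRPL3, a large-subunit protein near the peptidyl transferase centre, had 42.8 and 49.1 CPM on stimulated P(rGO) against 79.3 and 53.8 on plates (-0.53 ± 0.19, edgeR adjusted p = 0.18). The plate libraries differed by more than the film libraries, and without plate replicate 2 the value was -0.77 (adjusted p = 0.039). MRPS30 had 23.0 and 25.7 CPM on stimulated PEDOT:PSS against 34.4 and 33.7 (-0.48 ± 0.17, edgeR adjusted p = 0.23), and without the untreated libraries in the fit it was called (adjusted p = 0.031).

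Other gene lists were measured between unstimulated films and plates in the same libraries, where 4.63%, 1.48% and 4.23% of all genes were called on P(rGO), PEDOT:PSS and ITO. All 32 tested genes of the cytosolic ribosomal protein list were below 0 on each film. Their medians were -0.71, -0.50 and -0.71 in that order, and 11, 0 and 12 of them fell. Nuclear genes of oxidative phosphorylation rose in 5, 2 and 4 of 31 (medians 0.19, 0.15 and 0.18). All 13 mitochondrially encoded messengers had estimates below 0 on each film (medians -0.44, -0.35 and -0.39), none called. Of the 23 assembly factors none was called on any of the 3 films, with medians of -0.15, -0.18 and -0.11. Adrenergic markers gave 1, 0 and 2 lower of 8. Fibroblast markers gave 3, 1 and 3 higher and 1 lower of 11 on each film. Whether these families differ from the mitochondrial ribosomal proteins was not tested.

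Against untreated cells, nearly all called genes on the unstimulated films were lower. For P(rGO), 33 of 72 genes fell and 1 rose, where 35.6% of all genes were called, 18.8% lower and 16.8% higher. For PEDOT:PSS, 32 fell and 1 rose, where 31.4% of all genes were called, 16.8% lower and 14.6% higher. For ITO, 35 fell and 1 rose, where 35.0% were called, 18.8% lower and 16.1% higher. The medians were -0.47, -0.44 and -0.47, and these comparisons share the untreated libraries with that of the plates. All 12 film libraries lay below both untreated libraries in 39 genes and above both in 1, and overlapped them in 32, where 20.5% of all genes were below and 19.7% above. The counts depend on pooling the spread: fits of only the compared groups called 5, 0 and 3. Calls over all genes are not given for the refits here, so their counts show nothing particular to the 72 genes. Without replicate 2 of the film the counts were 19, 17 and 20, and without replicate 1 of PEDOT:PSS 21.

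MRPL42 was again the deepest fall, with 37.3, 41.5 and 49.8 CPM as lowest, median and highest film levels and log2 fold changes of -1.27 ± 0.20, -1.34 ± 0.20 and -1.37 ± 0.20 on P(rGO), PEDOT:PSS and ITO (largest edgeR adjusted p = 0.00042). MRPL11 also fell on each film, with -1.26 ± 0.20, -1.03 ± 0.20 and -1.22 ± 0.20 (largest adjusted p = 0.0017). MRPL10 fell by 1.17 ± 0.22 on P(rGO) and by 1.18 ± 0.22 on PEDOT:PSS (adjusted p = 0.0013 and 0.0016). MRPS2 had the smallest p on P(rGO) (-1.14 ± 0.18, adjusted p = 0.00032), and MRPL37 was among the smallest on PEDOT:PSS and ITO (-0.93 ± 0.15 and -0.97 ± 0.15). MRPL2, at about 1 CPM, fell on ITO (-1.27 ± 0.44, adjusted p = 0.037).

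The 1 gene that rose was MRPL49 on each film. It had 63.4 and 46.1 CPM in untreated cells and 67.3, 80.2 and 91.9 CPM as lowest, median and highest film levels, with no overlap. The log2 fold changes were 0.63 ± 0.17, 0.63 ± 0.17 and 0.59 ± 0.17 on P(rGO), PEDOT:PSS and ITO (edgeR adjusted p = 0.0097, 0.012 and 0.014). MRPL49 lies on chromosome 11 (65122183 to 65127371, plus strand, GRCh38), where FAU, whose product includes a cytosolic ribosomal protein, and SYVN1 overlap 12.2% of its exon bases on the other strand.

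Electrical stimulation gave no call among these genes. On P(rGO), PEDOT:PSS and ITO the stimulated and unstimulated films differed in 0 of 72 genes by edgeR, and 0% of all genes were called. At an unadjusted p under 0.05 there were 2, 0 and 0 genes (2.8%, 0% and 0%), against 5.5%, 0.70% and 1.6% of all genes. DESeq2 called none of the 72. The medians were -0.06, near 0 and 0.02. For the mean effect over the 3 films, which uses all 12 film libraries, edgeR and DESeq2 called 0 of 72, and 0% of all genes were called. An unadjusted p under 0.05 was seen for 1 of the 72 (1.4%), against 5.6% of all genes. There the 95% interval lay within 1.5-fold for 69 of 72 genes and within 2-fold for all 72.

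On P(rGO) the smallest p-values were those of MRPL39, a mitochondrion-specific protein of the large subunit, with 11.4 and 11.4 CPM stimulated against 15.3 and 14.8 unstimulated (-0.40 ± 0.16, edgeR adjusted p = 0.86), and of MRPL32 (0.35 ± 0.16, adjusted p = 0.89). MRPL32 also had the smallest p for the mean effect (0.20 ± 0.09, adjusted p = 0.84), followed by MRPL46 (0.34 ± 0.17, adjusted p = 0.89) and MRPS28 (-0.40 ± 0.22, adjusted p = 0.92). On PEDOT:PSS and ITO the smallest p was that of MRPS6, with 0.24 ± 0.23 and -0.38 ± 0.23 (adjusted p = 1.0 for both). On ITO that value rests on the 1 unstimulated library at 35.1 CPM, since the stimulated libraries had 21.4 and 21.8 CPM.

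The effect of stimulation was not called as different between films for any of the 72 genes by edgeR or DESeq2. An unadjusted p under 0.05 was seen for 1 of them (1.4%), against 0.74% of all genes. Films compared with each other, 3 unstimulated and 3 stimulated pairs, gave 0 calls among the 72 genes in each pair by edgeR and by DESeq2. At most 1 of the 72 (1.4%) had an unadjusted p under 0.05, against 1.3% to 3.5% of all genes. In each of these pairs 0% of all genes were called. MRPL51 had 65.6 and 72.4 CPM on stimulated PEDOT:PSS and 55.4 and 54.2 on stimulated P(rGO) (0.33 ± 0.13, edgeR adjusted p = 1.0). MRPL47, beside the exit of the tunnel, gave 0.31 ± 0.14 between stimulated ITO and stimulated P(rGO) (adjusted p = 1.0). MRPS6 was higher on unstimulated ITO than on P(rGO) by an estimate of 0.54 ± 0.23, and PEDOT:PSS minus ITO gave -0.58 ± 0.23 (adjusted p = 1.0 for both), again with the 1 high ITO library.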

How the data were processed

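Libraries of polyadenylated RNA were directional, per the labels' protocols. The table the authors deposited holds counts of reads per gene, 1 column per library. STAR, HTSeq, GRCh38.p13 and hg38 are named without versions, per the submitters' processing notes. The strand setting was not given in the sources used here. The 5 summary rows without a gene stayed out. Symbols were found for 62639 of 69222 IDs, and coordinates and overlaps from GENCODE 29.

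Genes were kept by edgeR's expression filter over the 8 groups (18081), scaled with TMM factors, and fitted with 1 mean per group over all 16 libraries in edgeR 4.0.16 (R 4.3.3), which leaves 8 residual degrees of freedom. A standard error is the size of a log2 fold change over the square root of its F, and CPM use scaled library sizes. A call needed a p of 0.05 or less after Benjamini-Hochberg adjustment over all genes. Named in each main comparison were up to 8 called rises and falls and the 3 smallest p-values, elsewhere up to 3 of each and 2. MRPL12, the MRPS18 paralogs and the highest and lowest level per length were named for differentiated against untreated plates, and up to 3 called genes of each other list. Some genes that met the rule have no values printed, such as MRPL30 on stimulated ITO and MRPL50 between stimulated PEDOT:PSS and stimulated ITO. Some genes were named outside this rule, among them MRPL49, MRPL46 and MRPL38 on plates and regulators that were not called. The genes and lists were chosen with earlier results of these data known. A further gene of the adrenergic list is not reported here.

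Tested on simulated data with 18081 genes, the fit recovered 16% and 68% of genes changed 1.5-fold and 2-fold for differentiated against untreated plates. For the mean effect of stimulation it recovered 62% and 92%. The simulation used 1 spread per gene for all groups and changed only genes above a set level. The untreated libraries were more uneven than the others (36.2% over all genes, against 6.9% to 18.1%), so recovery for plates may be overstated. Alternatives were DESeq2 1.42.0, other scalings, no filter, a replicate block, fits of the compared groups alone or without the untreated libraries, and leaving out each replicate. The 4 genes without counts were not analysed further.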

Additional observations from a re-analysis of the deposited data

How the results depend on the processing

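Precision is limited by 2 libraries per group. The refits below are given by their calls among the 72 genes alone, so a changed count may be a change shared with all genes. For differentiated against untreated plates, 36 of 72 genes were called, all of them again by DESeq2 (38), relative log expression scaling (36) and the fit with the replicate number as a block (37). Upper quartile scaling gave 33, no filter 29 and total counts 24. The fit of only the groups compared gave 0, with adjusted p-values of 0.11 to 0.26 for the 10 genes named for their fall or small p, and leaving out 1 replicate gave 10 to 38. Of the genes not called, MRPS18A ran from -0.54 to 0.084 when 1 replicate was left out, turning sign without untreated replicate 1, and MRPS21 turned to 0.043 with total counts.

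For the films against untreated cells the fit of only the groups compared gave 5, 0 and 3 for P(rGO), PEDOT:PSS and ITO, and leaving out 1 replicate gave 19 to 42, 17 to 38 and 20 to 41. The lowest counts came without replicate 2 of the film. Against plates, where the main counts were 0, the fit without the untreated libraries gave 2 on P(rGO), 3 on ITO and 1 on stimulated PEDOT:PSS. On ITO, DESeq2 gave 1, no filter 1 and leaving out 1 replicate 0 to 1. On stimulated P(rGO), leaving out 1 replicate gave 0 to 1. The cause of these changes was not tested.

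The labels give replicates 1 and 2 the prefixes NB33 and NB34, whose meaning was not given in the sources used here. The deviations of like-numbered libraries, over genes, correlated at 0.03 between differentiated and untreated plates, at 0.14 to 0.28 between stimulated and unstimulated films, at 0.12 to 0.29 between films, at -0.12 to 0.17 between films and differentiated plates, and at -0.09 to -0.01 between unstimulated films and untreated plates. Like-numbered film libraries thus deviated together and those of the untreated plates did not, and whether a number marks a shared culture or batch was not given in the sources used here. The replicate block changed no count to or from 0 and the call of no gene named in the comparisons it was run on.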
